A study of Mus musculus with 10 samples.

Results

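Integrins are the adhesion receptors with which T cells hold on to other cells and to matrix, and 10 of their chains were followed here in CD4 T cells that lacked or kept the nuclear factor TOX. The 10 chains (Itga1, Itga4, Itga6, Itgae, Itgal, Itgav, Itgb1, Itgb2, Itgb3 and Itgb7) were taken by gene symbol, and all 10 were found among the 53656 genes of the count tables. The KO group held 6 libraries of TOX KO cells, gated as Ly5.1+ and Ly5.2- and as low for PD1, LAG3 and CD39. The WT group held 4 libraries of TOX WT cells, gated as Ly5.1+ and Ly5.2+ and as high for the same proteins, so genotype, gate and congenic marker cannot be told apart. Cells of both groups carried the SMARTA transgenic T cell receptor for the GP61 peptide. They entered as naive cells into B6 mice that were treated with cytoxan (cyclophosphamide) and bore B16-GP61 melanoma, and were sorted on day 11 from the tumour-draining lymph node. The labels give neither the animals behind the replicates nor the part of Tox that was removed, so p-values measure only how far these libraries spread, and that spread may be technical.

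An integrin is a dimer of 1 alpha and 1 beta chain, and neither chain reaches the cell surface well without a partner. Itgal and Itgb2 form LFA-1, which binds ICAM-1 and is the main integrin of naive and activated T cells. Itga4 pairs with Itgb1 to bind VCAM-1 and fibronectin, or with Itgb7 to bind MAdCAM-1, the entry signal of gut vessels. Itgae (CD103) pairs with Itgb7 and binds E-cadherin on epithelia. It also marks many regulatory T cells, tissue-resident T cells and a class of dendritic cells. Itga1 (collagen receptor) pairs with Itgb1 alone, Itga6 (laminin receptor) and Itgav pair with Itgb1 among other beta chains, and Itgb3 pairs with Itgav in leukocytes and with Itga2b in platelets.

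The upstream sequences of Itga4 and Itgb7 are shown because their dimer is the gut-homing integrin and Itgb7 was the most variable of the abundant chains. Of the 10 chains, 5 had a window in the RefSeq promoter table of GRCm38.p6. The 250 bases before the RefSeq start are given 5′ to 3′ on the strand of the gene, chr2:79255176-79255425 on the plus strand for Itga4 and chr15:102231936-102232185 on the minus strand for Itgb7. Capitals mark CACCC, the core bound by KLF factors, and TGTGGT, the core bound by RUNX factors, on either strand (as GGGTG and ACCACA on the other).
Itga4: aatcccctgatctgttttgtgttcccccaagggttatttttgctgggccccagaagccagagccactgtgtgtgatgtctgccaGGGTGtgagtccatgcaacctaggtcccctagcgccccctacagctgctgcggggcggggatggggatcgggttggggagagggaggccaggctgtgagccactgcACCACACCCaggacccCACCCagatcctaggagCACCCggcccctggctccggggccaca
Itgb7: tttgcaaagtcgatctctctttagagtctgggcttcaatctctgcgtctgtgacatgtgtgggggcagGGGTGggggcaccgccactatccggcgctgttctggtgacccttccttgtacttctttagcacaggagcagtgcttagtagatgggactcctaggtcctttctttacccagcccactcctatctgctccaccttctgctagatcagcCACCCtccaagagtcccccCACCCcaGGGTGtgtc
Each window held 4 CACCC matches. The RefSeq start of Itgb7 lies inside the gene as counted, which reaches to 102231944. The last GGGTG of the Itgb7 window thus lies within the counted gene. Itga4 also held 1 RUNX match, which overlaps a CACCC match, and Itgb7 held 0. Of all 32851 windows of this length, 52% held CACCC and 14% held TGTGGT, so these matches describe the sequence and name no bound factor.

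Library depth was 36028980 to 55784453 counts in KO and 31939816 to 45481478 in WT. Tox itself stood at 30.9 ± 20.8 CPM (a count relative to the scaled total of its library, SD, n = 6) in KO and 236 ± 87.9 CPM (SD, n = 4) in WT, without overlap. Of the genes for the gated proteins, Pdcd1 (PD1) stood at 431 ± 74.0 CPM in KO libraries and 1091 ± 352 CPM in WT, Entpd1 (CD39) at 6.43 ± 7.74 CPM in KO libraries and 71.7 ± 51.0 CPM in WT, and Lag3 at 206 ± 137 CPM in KO libraries and 93.0 ± 151 CPM in WT. Entpd1 and Lag3 overlapped between the groups, and Lag3 had its higher mean in the cells gated as LAG3 low. The 8 markers of CD4 T cells summed to 12384 to 19137 CPM in KO libraries and 6383 to 13387 CPM in WT, so the labelled cell type was present in every library. Markers of other cells also differed: the 10 B cell markers summed to 80.0 to 317 CPM in KO libraries and 2612 to 10604 CPM in WT, and the 15 macrophage, monocyte and dendritic cell markers to 5.95 to 204 CPM in KO libraries and 1495 to 7208 CPM in WT. The NK cell markers went the other way, at 168 to 273 CPM in KO libraries and 14.9 to 67.3 CPM in WT. Immunoglobulin genes took 0.0835 to 0.188% of KO counts and 0.824 to 17.1% of WT counts. Libraries also stand apart by their number in the labels: numbers 1 to 3 (3 KO, 1 WT) had 14365 to 15873 genes detected and numbers 4 to 8 (3 KO, 3 WT) had 16348 to 19775. KO replicate 2 and WT replicate 1 share library number 2, and KO replicate 5 and WT replicate 3 share library number 6. The labels do not call these numbers batches, and values within each set are given below where they bear on a chain.

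Itgae, the alpha chain of CD103, was the 1 chain of the 10 that passed the test. Its transcript was nearly absent from KO and present in every WT library (GRCm38 chromosome 11, 73090583 to 73147446, plus strand). In KO it ranged from 0 to 1.22 CPM with a median of 0.43, on 157 counts over the 6 libraries. In WT it stood at 6.92, 49.1, 41.7 and 35.9 CPM in replicates 1 to 4, on 4858 counts. The groups did not overlap, and WT replicate 1 was the lowest WT library. The log2 fold change was -5.92 (SE 1.12, edgeR quasi-likelihood test, adjusted p = 0.019). Of the 9 chains with enough counts to be tested, 0 rose, 1 fell and 8 did not pass, against 3.13% of all 14214 genes tested that passed in either direction and 2.7% that fell and 0.429% that rose. At an unadjusted p under 0.05, 1 chain was higher (Itgb7) and 1 lower (Itgae), against 7.15% of all tested genes higher and 10.8% lower. Without overlap, 6.31% of the tested genes were lower in KO. Fewer cells with a transcript and less transcript per cell cannot be told apart in these bulk libraries.

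**Figure D1:**
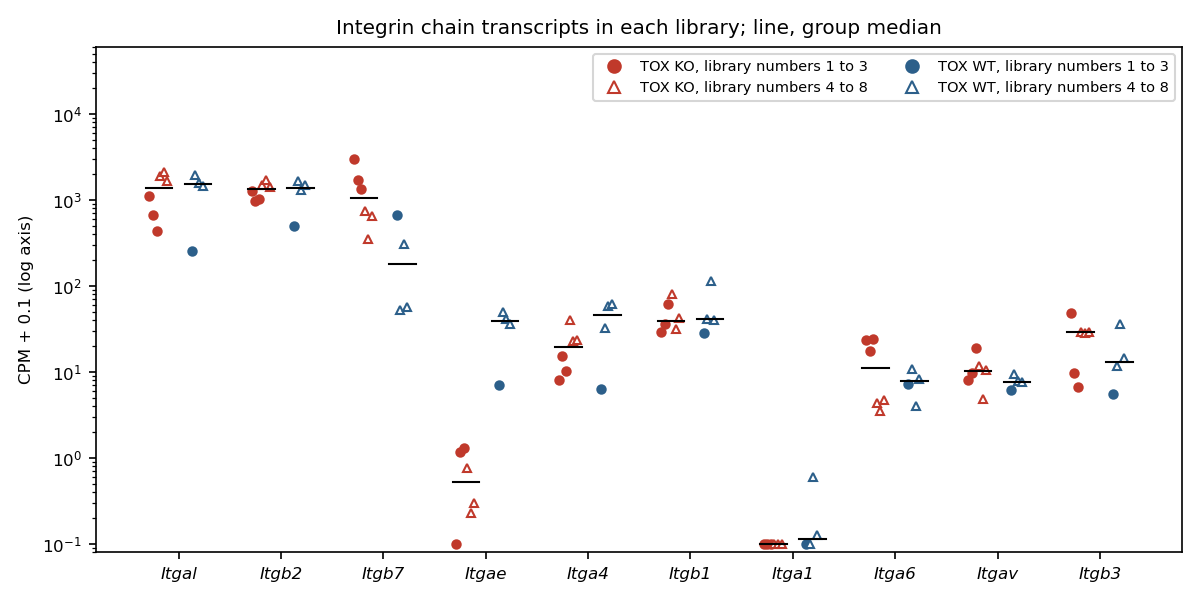
CPM of the 10 integrin chains in each library, plus 0.1 and on a log axis, with TOX KO left of TOX WT, circles for library numbers 1 to 3, triangles for 4 to 8 and a line at each group's median. The KO points of Itgae lie below its WT points, while both groups of every other chain with counts in KO overlap.

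The Itgae difference had the same direction and no overlap in both library sets, as did 9.03% of all tested genes. Within numbers 4 to 8 it stood at 0.13 to 0.66 CPM in KO libraries and 35.9 to 49.1 CPM in WT (log2 fold change -6.96 with SE 0.71, adjusted p = 0.0072 by edgeR, where 7.18% of genes fell). With a term for the set the log2 fold change was -6.12 (SE 1.36, adjusted p = 0.039 by edgeR, where 2.78% fell), and with DESeq2 it was -6.05 (SE 0.97, adjusted p = 3.0e-08, where 7.03% fell). Within numbers 1 to 3 it stood at 0 to 1.22 CPM in KO libraries and 6.92 CPM in the 1 WT library (-3.14, SE 2.15, edgeR adjusted p = 0.41). The call was lost without WT replicate 2 (-5.68, edgeR adjusted p = 0.055) and without WT replicate 4 (-5.88, 0.060), and it held without any 1 of the other 8 libraries. WT replicate 1, lowest in Itgae, also had the lowest sums of the B cell markers (2612 CPM, others 6423 to 10604) and of the myeloid markers (1495 CPM, others 2032 to 7208) among WT libraries. That library was likewise the lowest WT library for Itgal, Itgb2, Itga4, Itgb1, Itgb3 and Itgav, and the highest for Itgb7. Of the 15 myeloid markers, 14 had counts in KO, and Clec9a, a dendritic cell gene, had 0 counts there and 0 to 0.80 CPM in WT. The part of other cells in the Itgae difference was not tested.

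Of 7673 named genes that averaged 8 CPM or more, the 3 whose pattern over the 10 libraries was most like that of Itgae were Fcrla, Slamf7 and H2-Ob. Likeness was the root mean square difference of centred log2 CPM, at 0.86, 1.04 and 1.09. The choice used these same 10 libraries, so a gap between KO and WT like that of Itgae follows from it and is no separate evidence. Fcrla, an Fc receptor-like protein of B cells, stood at 7.24 ± 6.56 CPM (SD, n = 6) in KO and 273 ± 134 CPM (SD, n = 4) in WT. H2-Ob, a chain of the peptide-loading regulator of B cells and thymus, stood at 21.9 ± 10.7 CPM in KO libraries and 618 ± 280 CPM in WT. Slamf7, a SLAM family receptor of plasma cells, NK cells and myeloid cells, stood at 3.37 ± 3.86 CPM in KO libraries and 61.9 ± 36.1 CPM in WT.

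Itgb7, the only known beta partner of Itgae, did not follow it. It stood at 352 to 3008 CPM in KO libraries with a median of 1051, and at 676, 52.2, 305 and 56.9 CPM in WT replicates 1 to 4 (chromosome 15, 102215995 to 102231944, minus strand). The groups overlapped: WT replicate 1 lay above KO replicate 5 and KO replicate 6. The log2 fold change was 2.26 (SE 0.86) and did not pass (edgeR adjusted p = 0.20). Within library numbers 1 to 3 Itgb7 ranged from 1355 to 3008 CPM in KO libraries and stood at 676 CPM in WT, and within numbers 4 to 8 it ranged from 352 to 747 CPM in KO libraries and from 52.2 to 305 CPM in WT. KO was thus above WT in both sets without overlap, as were 6.56% of all tested genes. With a term for the set the log2 fold change was 1.91 (SE 0.56, edgeR adjusted p = 0.096). Itgb7 passed with DESeq2 (2.30, SE 0.78, adjusted p = 0.032, where 4.31% of genes passed as higher in KO) and without WT replicate 1 (3.24, SE 0.89, edgeR adjusted p = 0.047, where 2.92% did). Across the KO libraries, the lowest library of numbers 1 to 3 held more Itgb7 than the highest of numbers 4 to 8.

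Itga4, the other alpha partner of Itgb7, ranged from 7.87 to 40.2 CPM in KO libraries with a median of 19.2, and stood at 6.18, 32.7, 58.3 and 61.0 CPM in WT replicates 1 to 4. The groups overlapped widely, and WT replicate 1 was the lowest of all 10 libraries. The log2 fold change was -0.98 (SE 0.63, edgeR adjusted p = 0.45). Its sign depended on the set, at 0.88 within numbers 1 to 3 and -0.77 within numbers 4 to 8, neither of which passed (edgeR adjusted p = 0.48 and 0.26). The exons of Itga4 share 1124 bases with Cerkl on the other strand, whose reads cannot be told apart here.

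Itgb1, the common beta chain, ranged from 29.2 to 81.7 CPM in KO libraries with a median of 39.1, and stood at 28.0, 41.4, 115 and 40.2 CPM in WT. WT replicate 3 was highest and the groups overlapped (log2 fold change -0.26 with SE 0.47, adjusted p = 0.80 by edgeR).

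The chains of LFA-1 did not pass and their means lay close together. Itgal ranged from 435 to 2112 CPM in KO libraries with a median of 1373, and stood at 258, 1942, 1579 and 1453 CPM in WT replicates 1 to 4 (chromosome 7, 127296260 to 127335138, plus strand). Itgb2 ranged from 982 to 1719 CPM in KO libraries with a median of 1328, and stood at 497, 1646, 1301 and 1491 CPM in WT (chromosome 10, 77530252 to 77565708, plus strand). WT replicate 1 was the lowest library for both chains. The log2 fold change was -0.00 (SE 0.56) for Itgal and 0.09 (SE 0.32) for Itgb2, with edgeR adjusted p of 1.00 and 0.90. The libraries of numbers 1 to 3 held less of both: Itgal was at 435 to 1104 CPM in KO libraries and 258 CPM in WT there, against 1643 to 2112 CPM in KO libraries and 1453 to 1942 CPM in WT of numbers 4 to 8. Itgb7 ran the other way between the sets, so the order of the abundant chains changed with the library number in KO. The order also changed in WT, where numbers 1 to 3 are WT replicate 1 alone.

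**Figure D2:**
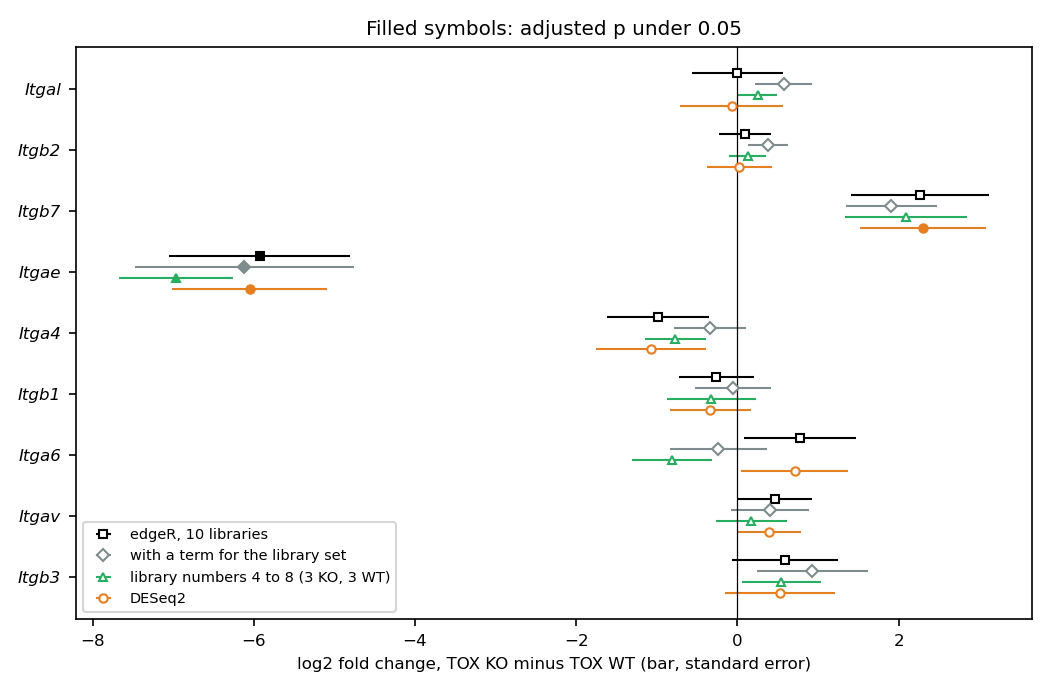
Log2 fold change (TOX KO minus TOX WT, bar for the standard error) of the 9 tested chains in edgeR with all 10 libraries, with a term for the library set, within library numbers 4 to 8 and in DESeq2, filled where the adjusted p is under 0.05. Itgae is filled in all 4 fits at -5.92 to -6.96, Itgb7 only with DESeq2 at 2.30, and the other 7 chains in none.

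Per kilobase of exon, 3 of the 10 chains made up nearly all integrin transcript in both genotypes. In KO, Itgb7 averaged 471 ± 350 CPM per kb, Itgb2 431 ± 92.5 and Itgal 199 ± 104 (SD, n = 6). In WT, Itgb2 averaged 404 ± 168 CPM per kb, Itgal 199 ± 111 and Itgb7 98.4 ± 106 (SD, n = 4). In KO the ranges of Itgb7 and Itgb2 overlapped, and in WT those of Itgb2 and Itgal, and of Itgal and Itgb7, did. Next came Itgb1, at 11.5 ± 5.04 CPM per kb in KO and 13.8 ± 9.78 in WT. Itgae came after Itgav in KO, at 0.12 ± 0.11 CPM per kb, and directly after Itgb1 in WT, at 7.30 ± 4.03. Itgb3, Itga4, Itga6 and Itgav averaged 0.99 to 4.28 CPM per kb in KO and 0.72 to 2.84 in WT, and in KO the ranges of neighbours among these 4 overlapped, while that of Itgav lay above that of Itgae.

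Among the 4 beta chains, Itgb2 and Itgb7 shared almost the whole sum per kilobase. Itgb7 took 71.8, 65.0 and 58.0% in KO replicates 1 to 3 and 34.3, 18.1 and 33.3% in KO replicates 4 to 6. In WT it took 58.9% in replicate 1 and 3.31, 19.3 and 3.94% in replicates 2 to 4. WT replicate 1, whose library number is 2, thus had a share within the range of the KO libraries numbered 1 to 3, and the genotypes overlapped in both sets: KO replicate 3 lay below WT replicate 1, and KO replicate 5 lay below WT replicate 3.

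**Figure D3:**
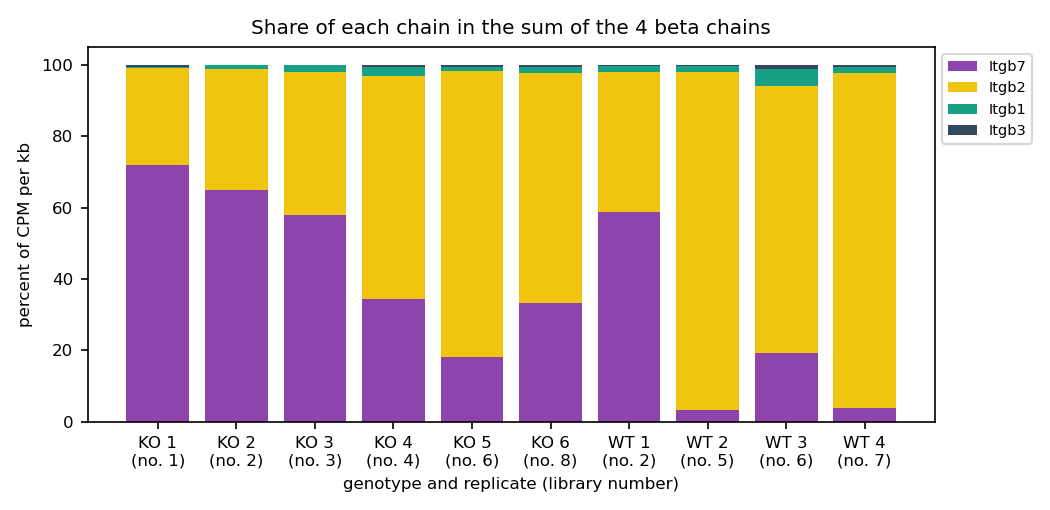
Share of each beta chain, in percent of their summed CPM per kilobase of exon, in the 6 TOX KO libraries (left) and the 4 TOX WT libraries (right), with the library number from the labels under each bar. Itgb7 takes 58.0 to 71.8% in the 3 KO libraries numbered 1 to 3 and 58.9% in the WT library numbered 2, and 3.31 to 34.3% in the others.

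Ratios of partner chains within a library do not depend on how libraries are scaled. For 8 ratios, the difference between genotypes in the mean log2 ratio per exon length was tested by an exact two-sided permutation test over the 210 splits of 6 and 4 libraries, whose smallest possible p is 0.0095, and adjusted over the 8. Itgae over Itgb7 averaged -12.6 ± 2.90 in KO and -3.28 ± 2.95 in WT (SD), without overlap, a difference of -9.35 (exact p = 0.0095, adjusted p = 0.076). KO replicate 1, with 0 Itgae counts, stood at -18.4 on a pseudocount of 0.5, and without it the difference was -8.19. Itgb7 over Itgb1, the beta partners of Itga4, averaged 5.12 ± 1.34 in KO and 2.27 ± 1.98 in WT, a difference of 2.85 (exact p = 0.048, adjusted p = 0.13), with WT replicate 1 at 5.15 within the KO range. Itga4 over Itgb7 averaged -8.24 ± 1.86 in KO and -4.77 ± 3.07 in WT (exact p = 0.067, adjusted p = 0.13). The ratio of the LFA-1 chains, Itgal over Itgb2, averaged -1.30 ± 0.63 in KO and -1.22 ± 0.57 in WT (exact p = 0.88). Itga4 over Itgb1, Itga6 over Itgb1 and Itgav over Itgb3 differed by -0.62, 0.55 and -0.25 (exact p = 0.35, 0.58 and 0.75). No ratio passed after adjustment. A single ratio at the smallest possible p reaches only 0.076 when adjusted over the 8, so it could not have passed alone. Before adjustment 3 passed, the third being Itga1 over Itgb1, which has an Itga1 count in only 2 of 10 libraries.

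**Figure D4:**
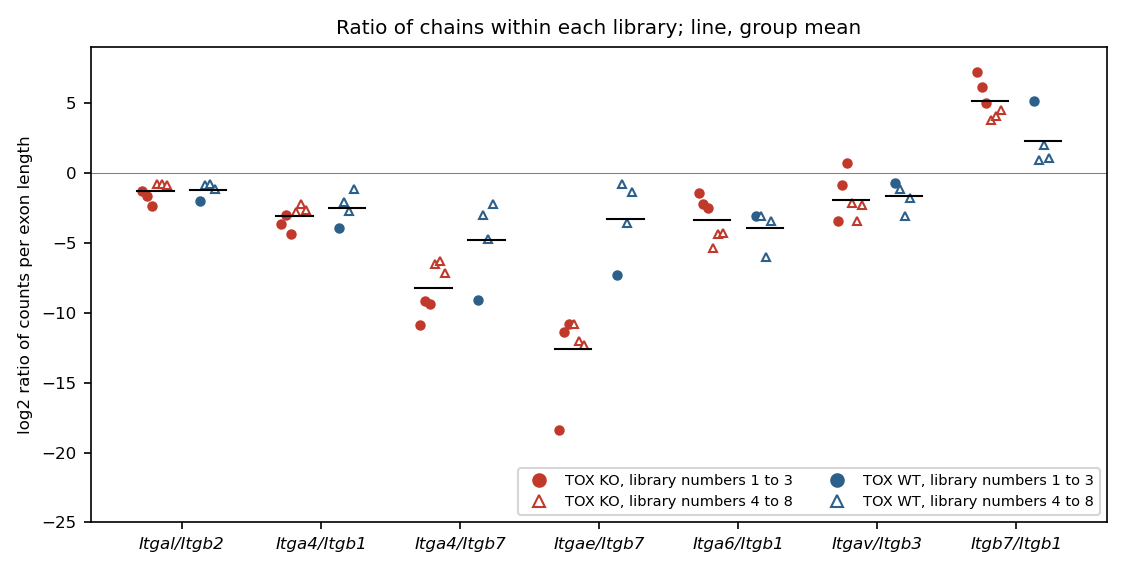
Log2 ratio of counts per exon length for 7 pairs of integrin chains in each library, with TOX KO left of TOX WT, circles for library numbers 1 to 3, triangles for 4 to 8 and a line at each group's mean. The KO and WT points of Itgae over Itgb7 do not overlap, while those of the other 6 pairs do.

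The less abundant chains did not pass. Itga6, a laminin receptor chain, ranged from 3.41 to 24.1 CPM in KO libraries with a median of 11.0, and stood at 7.12, 10.7, 3.96 and 8.24 CPM in WT (log2 fold change 0.78 with SE 0.69, adjusted p = 0.59 by edgeR). Its high values were the 3 KO libraries numbered 1 to 3, at 17.2 to 24.1 CPM, and within numbers 4 to 8 its log2 fold change was -0.81 (edgeR adjusted p = 0.34). Itgb3, the vitronectin receptor beta chain, ranged from 6.60 to 48.2 CPM in KO libraries with a median of 28.8, and stood at 5.43, 11.6, 35.7 and 14.3 CPM in WT (log2 fold change 0.59 with SE 0.66, adjusted p = 0.68 by edgeR). Itgav ranged from 4.81 to 19.1 CPM in KO libraries with a median of 10.1, and stood at 6.06, 9.46, 7.68 and 7.62 CPM in WT (log2 fold change 0.47 with SE 0.46, adjusted p = 0.63 by edgeR). Its exons share 634 bases with RP23-141N19.2 on the other strand. Itga1 had 0 counts in all 6 KO libraries and 20 in WT, of which 19 were in WT replicate 3, and was too low to test. A count of 0 over the KO group allows up to 0.0112 CPM by counting error alone. WT replicates 1 and 2 also had 0 counts, and without WT replicate 3 the pooled WT level was 0.0088 CPM, below that limit, so no fold is given.

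The other integrin chains were looked at as a list of 16, of which 8 had enough counts to be tested. Of these, 0 rose, 1 fell and 7 did not pass by edgeR, against 0.429% of all tested genes that rose and 2.7% that fell. At an unadjusted p under 0.05, 1 was higher and 2 lower, against 7.15% and 10.8% of all tested genes. DESeq2 had 1 higher and 1 lower, against 4.31% and 7.03%. Without WT replicate 1, where genes were filtered anew, 1 of the 16 rose and 4 fell, against 2.92% and 7.9% of all genes tested there. Of the 8, 4 fold changes were positive and 4 negative. Their median was -1.29, against -0.12 for all genes tested. It was 0.25 with a filter of 1 CPM and 0.23 without KO replicate 6. With a replicate block it was 0.59, and within library numbers 1 to 3 it was 6.45. Itgam (-6.46 with all 10 libraries) was not tested in those fits. Their medians thus cover another set of chains, and the signs cannot be compared. The chain that fell was Itga5, the fibronectin receptor alpha chain. It had 0 counts in KO and stood at 26.1, 2.16, 14.0 and 3.60 CPM in WT replicates 1 to 4. Set against a floor of 3 counts over the KO group, KO was at least 1081-fold lower (edgeR adjusted p = 0.016). WT replicate 1 held 1083 of the 1813 WT counts, and without it the bound was at least 626-fold. The call held without any 1 library. Itga5 was highest in WT replicate 1, where Itgae was lowest among WT libraries. That library is also the only WT library of numbers 1 to 3. The part of other cells in the Itga5 difference was not tested. Itga9, named after its values were seen, ranged from 3.65 to 45.6 CPM in KO libraries and stood at 0.07, 0.51, 0.21 and 3.12 CPM in WT, without overlap. In that direction 2.59% of tested genes did not overlap. It did not pass (log2 fold change 4.57 with SE 1.21, adjusted p = 0.076 by edgeR), while DESeq2 gave 4.45 (adjusted p = 1.6e-04). Itgam and Itgax, the chains of the myeloid integrins, were also singled out after their values were seen. Itgam stood at 0 to 0.59 CPM in KO libraries and 0 to 16.1 CPM in WT (edgeR adjusted p = 0.15). Of its 5024 exon bases, 3450 are shared with RP23-144N15.4 on the same strand. Itgax stood at 0 to 2.77 CPM in KO libraries and 0.02 to 35.9 CPM in WT (edgeR adjusted p = 0.30). Itgam and Itgax were lowest in WT replicate 1 among the WT libraries. So were the summed markers of myeloid cells, B cells, plasma cells and neutrophils. The same held for Itgae, Itgal, Itgb2, Itga4, Itgb1, Itgb3, Itgav, Itga3, Itga7 and Itga9. In contrast, Itgb7, Itga5, Itgb5 and Itgb8 were highest in that library among the WT libraries. The part of other cells in the Itgam and Itgax values was not tested.

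Genes that work with integrins were taken as 4 lists. Their edgeR counts stand against 0.429% of all tested genes that rose and 2.7% that fell. At an unadjusted p under 0.05 the shares were 7.15% higher and 10.8% lower, and by DESeq2 4.31% higher and 7.03% lower. Of 20 tested genes that activate integrins from inside the cell, among them the beta tail binders Tln1 and Fermt3 and the Rap1 pathway, 0 rose and 1 fell by edgeR (median log2 fold change 0.20, and -0.31 when scaled to T cell receptor genes, where the median of all genes was -0.75), with 5 higher and 1 lower at an unadjusted p under 0.05 and 1 higher and 1 lower by DESeq2. The gene that fell was Skap2, an adaptor of integrin signalling in myeloid cells. It stood at 28.1 to 45.6 CPM in KO libraries with a median of 33.4, and at 86.8, 123, 85.2 and 159 CPM in WT, without overlap (log2 fold change -1.69 with SE 0.29, adjusted p = 0.012 by edgeR). The call was lost without WT replicate 2 (adjusted p = 0.051) or WT replicate 4 (0.074). Its T cell relative Skap1 stood at 662 ± 104 CPM in KO libraries and 363 ± 193 CPM in WT, which did not pass (log2 fold change 0.87 with SE 0.33, adjusted p = 0.20 by edgeR). Fermt3 (kindlin-3), which is required for integrin activation in blood cells, stood at 1112 ± 199 CPM in KO libraries and 649 ± 206 CPM in WT (log2 fold change 0.78, edgeR adjusted p = 0.14). Tln1 (talin) stood at 540 ± 268 CPM in KO libraries and 375 ± 274 CPM in WT (0.52, edgeR adjusted p = 0.62).

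Of 19 tested genes of signalling and cytoskeleton after binding, 0 rose and 0 fell by edgeR (median log2 fold change 0.09), as by DESeq2 and at an unadjusted p under 0.05. In other fits, 2 rose without WT replicate 3, where 307 of all 14673 tested genes rose. Within numbers 4 to 8, 1 fell, against 7.18% of all genes. When scaled to T cell receptor genes 1 fell, where 1387 of all 14214 tested genes fell. The median was -0.59 with that scaling. Of 11 tested ligands and counter-receptors, 0 rose and 1 fell by edgeR (median -1.55), with 0 higher and 4 lower at an unadjusted p under 0.05 and 0 higher and 2 lower by DESeq2. Without WT replicate 1, 4 fell, against 7.9% of all genes. The median was -0.23 with a term for the library set, -0.88 without KO replicate 2 and -0.94 without KO replicate 1. Within numbers 1 to 3 it was 6.67, where its sign turned. Fits on fewer libraries filtered genes anew, so their counts and medians may cover other genes of a list. The gene that fell with all 10 libraries was Fn1, which encodes fibronectin, the ligand shared by the Itga4 and Itga5 dimers and a product of macrophages and stroma. Its call held without any 1 library and was lost with a replicate block (edgeR adjusted p = 0.053), where 0 genes passed. Fn1 had 2 counts in KO, and stood at 4.37, 4.93, 23.4 and 41.9 CPM in WT (edgeR adjusted p = 0.0023 with all 10 libraries). The myeloid marker sum was likewise higher in every WT library than in any KO library, and its part in that of Fn1 was not tested. Vcam1, the ligand of the Itga4 and Itgb1 dimer, stood at 0.78 ± 1.18 CPM in KO libraries and 55.1 ± 58.1 CPM in WT, which did not pass (edgeR adjusted p = 0.17). Icam1 and Icam2, the ligands of LFA-1, did not pass either (log2 fold change -0.65 and 0.04, edgeR adjusted p = 0.54 and 0.96). Of 12 tested other adhesion receptors of T cells, 0 rose and 0 fell by edgeR (median 0.21), with 3 higher and 3 lower at an unadjusted p under 0.05 and 2 higher and 1 lower by DESeq2. With the scaling to T cell receptor genes, 4 of these receptors fell, where 1387 of all 14214 tested genes fell. Their median was then -0.53, against -0.75 for all genes. Cd44, the hyaluronan receptor, stood at 53.2 ± 33.3 CPM in KO libraries and 151 ± 77.3 CPM in WT (edgeR adjusted p = 0.20).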

How the data were processed

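RNA was taken from CD4 T cells sorted into Trizol and amplified with the SMART-seq v4 kit, per the labels' protocols, and read pairs were sequenced. The authors deposited counts of read pairs per gene symbol, made with featureCounts 1.6.2 on GENCODE M17 of GRCm38.p6 without a strand option and without reads that match several places, per the file headers. Per the submitters' processing notes, STAR and FastQC were also used.

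Counts were scaled with TMM factors, filtered with filterByExpr by genotype, and tested with the quasi-likelihood F test of edgeR 4.0.16 (limma 3.58.1, R 4.3.3; Benjamini-Hochberg over 14214 genes, threshold 0.05). Log2 fold changes are KO minus WT, their SE is derived from the F statistic, and log2 CPM uses a prior count of 2. Alternatives were other factors and filters, DESeq2 1.42.0, limma-voom, left-out libraries, library sets, a replicate block and other scaling genes. The procedure was tested on simulated data. No pair of libraries within a group agreed within sampling noise.

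The chains and lists were chosen with earlier results of these data known. Named genes were the 10 chains, list genes past the threshold, checks of the labels, and the 3 genes most like each chain that passed. Other genes were named after their values were seen. Intervals and floors cover counting error only. Marker lists of 11 cell types were summed. Some genes, and 1 marker list, are not reported here. Further lists, and that of NK cells again, ranged in KO and WT as follows. Plasma cell markers summed to 60.0 to 729 CPM in KO and 803 to 5661 CPM in WT. CD8 T cell markers summed to 37.7 to 79.4 CPM in KO and 71.4 to 118 CPM in WT. NK cell markers summed to 168 to 273 CPM in KO and 14.9 to 67.3 CPM in WT. Neutrophil markers summed to 0.021 to 62.2 CPM in KO and 3.33 to 474 CPM in WT. Stroma and endothelium markers summed to 172 to 377 CPM in KO and 81.8 to 363 CPM in WT. Melanoma markers summed to 2.49 to 6.94 CPM in KO and 0 to 8.80 CPM in WT. Erythroid markers summed to 1.98 to 395 CPM in KO and 0.34 to 56.0 CPM in WT.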

Additional observations from a re-analysis of the deposited data

Results flagged for a closer look

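In 33 checks for a library far from the others of its group, 4 stood out, where chance flags about 1 in 20. Among WT libraries, replicate 3 held 0.51 CPM of Itga1 (others 0 to 0.028 CPM), 115 CPM of Itgb1 (others 28.0 to 41.4 CPM) and a log2 ratio of Itga6 over Itgb1 of -6.01 (others -3.43 to -3.10). Among KO libraries, replicate 1 had a log2 ratio of Itgae over Itgb7 of -18.4 (others -12.3 to -10.8), where its Itgae count was 0.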

How the results depend on the processing

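Itgae was lower in KO under every alternative run. It lost its call within library numbers 1 to 3 (-3.14), with a replicate block (-6.08, adjusted p = 0.12), in the same 8 libraries without the block (-5.50, an alternative chosen after seeing the data, adjusted p = 0.079), at a threshold of 0.01 (-5.92) and without WT replicate 2 or 4. Leaving out 1 library gave -6.31 to -5.65. Itgb7 was higher under every alternative run (1.92 to 3.24 with 1 library left out) and passed with DESeq2 (2.30) and without WT replicate 1. No other chain passed under any alternative. Their signs turned as follows. Itgal turned positive with limma-voom (0.13), no filter (0.031), a filter of 1 CPM (0.012), the set term (0.57), numbers 4 to 8 (0.25), numbers 1 to 3 (1.54) and immunoglobulin genes left out (0.044), and ranged from -0.34 to 0.30 with 1 library left out. Within numbers 1 to 3 Itga4 was at 0.88 and Itgb1 at 0.63. Itga6 was at -0.24 with the set term and -0.81 within numbers 4 to 8. Scaling to T cell receptor genes moved the median of all genes to -0.75, with Itgav at -0.20, Itgb2 at -0.62 and Itgb3 at -0.21, and Itgb2 was at -0.058 in the same 8 libraries. With 1 library left out, Itgb1 ranged from -0.48 to 0.37 and Itgb2 from -0.17 to 0.32.

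Within numbers 4 to 8, where the smallest exact p is 0.1, the log2 ratio difference was -9.78 for Itgae over Itgb7, 2.80 for Itgb7 over Itgb1, 0.13 for Itgal over Itgb2, -0.50 for Itga6 over Itgb1 and -2.27 for Itga1 over Itgb1, which stood at -0.73 with a pseudocount of 5. With 1 library left out, the ranges were -10.70 to -8.19 for Itgae over Itgb7, 2.39 to 3.81 for Itgb7 over Itgb1, -4.91 to -2.62 for Itga4 over Itgb7, -2.28 to -1.05 for Itga1 over Itgb1, -0.15 to 0.95 for Itga6 over Itgb1, -0.35 to 0.14 for Itgal over Itgb2 and -0.77 to 0.072 for Itgav over Itgb3.

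Over all genes, 61 rose and 384 fell. Counts higher and lower were 613 and 999 with DESeq2, 204 and 680 with limma-voom, 121 and 1033 for library numbers 4 to 8, 316 and 79 for library numbers 1 to 3, 16 and 1387 under T cell receptor scaling, and 7 and 121 at the threshold of 0.01. Without a filter 39 rose, with the set term 116 rose, and without immunoglobulin genes 220 fell. With 1 library left out, 10 to 443 rose and 143 to 1201 fell, both lowest without WT replicate 4 and highest without WT replicate 1. With a replicate block 0 rose and 0 fell by edgeR (2299 genes at an unadjusted p under 0.05), against 43 and 244 in the same 8 libraries without it. The labels do not say whether the replicate numbers pair the samples. Libraries with the same replicate number had correlations of -0.25 to 0.30 in their deviations from the group means. These values cannot settle a pairing, since the library sets also differ. The libraries that share a library number correlated at 0.317 (number 2) and 0.131 (number 6), and whether these numbers mark shared animals or batches is not given. Of the calls, 13.7% were higher in KO, against 38.0% with DESeq2, 23.1% with limma-voom, 80.0% within numbers 1 to 3 and 1.14% with T cell receptor scaling. The cause of these changes was not tested. Itgae in KO rests on 157 counts and Itga1 on 20 in all, which limits both.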
